A study of Sus scrofa with 28 samples.

Results

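The GADD45 family consists of GADD45A, GADD45B and GADD45G, small stress-inducible nuclear proteins. They were examined in the lungs of female swine that had inhaled sulfur mustard vapor. Members were the probe sets of the Affymetrix porcine array whose annotation gave the single symbol of a family gene. This rule found 4 probe sets of 23999 that were not array controls, covering 3 of 6765 gene symbols. GADD45A and GADD45G had 1 probe set each (Ssc.20913.1.S1_at and Ssc.20585.1.S1_at), and GADD45B had 2 (Ssc.9380.1.S1_at and Ssc.14764.1.A1_at). The rule used no measured value. The lowest signal of any of them was 134, and the median signal of an array lay between 55.6 and 64.4.

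Total RNA was measured on 28 arrays from 10 large swine that were anesthetized, intubated and supine. They breathed air (3 animals, 28, 29 and 44, dose 0 µg/kg), a low dose of 60 µg/kg (3 animals, 31, 32 and 33) or a medium dose of 100 µg/kg (4 animals, 34, 39, 41 and 42) of the vapor, named HD in the labels, for 10 min. The left apical, median and caudal lobes were taken after 12 h. Arrays were missing for the caudal lobe of medium animal 39 and the apical lobe of medium animal 41. Values are the deposited linear signal. Differences are on the log2(signal + 16) scale after quantile normalization, given as the estimate ± SE. A probe set was called, and is said to have risen or fallen, at a Benjamini-Hochberg adjusted p under 0.05 from limma over all probe sets.

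Sulfur mustard is an alkylating agent that damages DNA and injures the lining of the airways. GADD45 proteins bind and activate the kinase MAP3K4, which feeds the p38 and JNK stress kinase pathways. They also bind PCNA, the cell cycle inhibitor p21 (CDKN1A) and the CDK1 and cyclin B1 complex, and have been linked to growth arrest, DNA repair and active DNA demethylation. The genes differ in what induces them: GADD45A is a classical target of p53 after DNA damage, GADD45B responds to NF-kB and TGF-beta, and GADD45G responds to cytokines. The integrated stress response and the immediate early genes are other arms of the early response to cell injury.

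Alveolar type 2 markers, which define lung parenchyma, were bright in all animals. Their brightest gene was SFTPC, a surfactant protein, with a mean signal of 2929 over the 28 arrays. Of 5 striated muscle markers 3 were measured, with summed signals from 58.2 to 89.5 and TNNT2 near 0 (0.98). An index of RNA integrity, computed from control probe sets for both ends of the actin and GAPDH transcripts as log2 of 3' over 5' signal, is higher where RNA is less intact. Averaged over the lobes of an animal, it was 2.17 in medium animal 39 and lay between 0.616 and 1.35 in the other 9 animals. On single arrays it was 1.95 and 2.39 in the apical and median lobes of animal 39, and 1.90 in the caudal lobe of air animal 28. Fits within a lobe were not run with this index as a covariate. Medium animals averaged 1.24 and air animals 1.12 (exact permutation p = 0.886, two-sided, 35 splits), and 0.765 in low animals. The difference of -0.359 between low and air animals had an exact permutation p of 0.3 (two-sided, 20 splits).

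GADD45G was higher in medium than in air lungs, and in the median lobe it rose. In that lobe its signal was 162, 147 and 184 in air animals 28, 29 and 44, 222, 232 and 212 in low animals 31, 32 and 33, and 372, 349, 394 and 491 in medium animals 34, 39, 41 and 42. The 3 doses did not overlap there: every low value exceeded every air value and every medium value exceeded every low value. In that lobe 7.94% of all probe sets had every low value above every air value, and 9.62% every medium value above every low value. Medium minus air was 1.21 ± 0.13 (adjusted p = 0.0307, 4 against 3 animals), or 2.31-fold on the log2(signal + 16) scale. This was the smallest p of all 23999 probe sets in that lobe, where 97 probe sets, 0.404%, were called. The exact permutation test of the same values gave p = 0.0286 (two-sided, 35 splits), the smallest that 4 against 3 animals allow. The call was lost in 5 of the 10 fits that left out 1 animal. The estimate lay between 1.11 and 1.29 with any 1 animal left out, but the adjusted p was 0.0829 without air animal 28, 0.160 without 29, 0.0666 without low animal 31, 0.0606 without 32 and 0.0741 without medium animal 41. Medium minus low in the median lobe was 0.80 ± 0.13 and just missed the threshold (adjusted p = 0.0523). It passed without medium animal 34 (0.83, adjusted p = 0.0245) or without air animal 29 (0.80, adjusted p = 0.0487). Those fits called 1312 and 74 of all probe sets, in place of 5. Low minus air was 0.41 ± 0.14 (adjusted p = 0.711).

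Elsewhere in the lung GADD45G varied more between medium animals. The caudal lobe had signals of 147, 139 and 166 in air animals, 181, 220.3 and 149 in low animals and 306, 233 and 437 in medium animals 34, 41 and 42. Air and low overlapped in the caudal lobe, while all 3 medium values were above both. Every medium value was above every low value there in 5.72% of all probe sets. In the apical lobe the signals were 204, 154 and 243 in air animals, 182, 204 and 189 in low animals and 212, 264 and 680.1 in medium animals 34, 39 and 42. Medium animal 34 lay within the air range there, and only animal 42 stood far above it. Medium minus air was 1.01 ± 0.21 in the caudal lobe (adjusted p = 0.125) and 0.71 ± 0.36 in the apical lobe (adjusted p = 0.880). Without medium animal 42 the apical value was 0.21. With 3 against 3 animals, as in both of these lobes, an exact permutation test cannot go below p = 0.1. Over all lobes the animals' values were 7.52, 7.34 and 7.72 on the log2 scale in air, 7.73, 7.88 and 7.62 in low and 8.27, 8.19, 8.34 and 9.08 in medium animals. Every medium animal was above every air and low animal, and low animal 33 lay within the air range. Medium minus air was 0.94 ± 0.20 (adjusted p = 0.0860, exact permutation p = 0.0286, two-sided) and medium minus low 0.73 ± 0.20 (adjusted p = 0.141). Without medium animal 39, medium minus air was 1.04 and passed (adjusted p = 0.0487). That fit called 383 of all probe sets in place of 31.

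**Figure D1:**
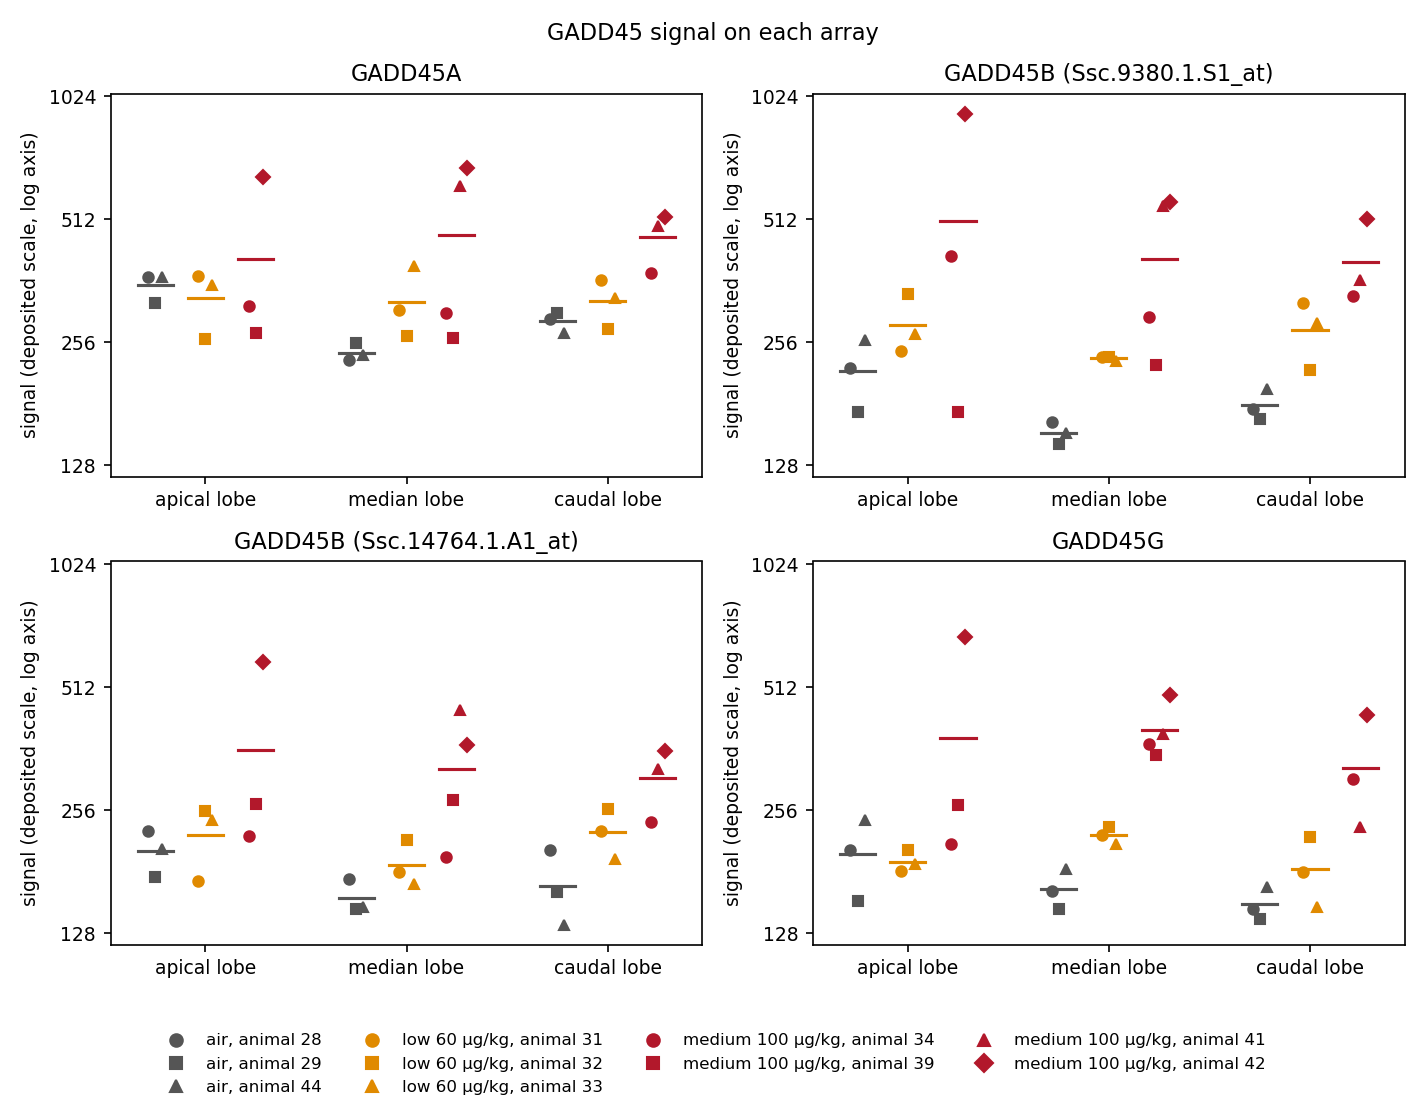
Deposited signal (vertical log axis) of the 4 GADD45 probe sets on each of the 28 arrays, by lobe and, within a lobe, by exposure from air over low to medium; symbols mark animals and short bars the group mean. In the median lobe the 4 medium GADD45G arrays lie between 349 and 491 and the 3 air arrays between 147 and 184, while in the apical lobe medium animal 42 stands far above the other medium animals in every panel.

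GADD45B was read by a pair of probe sets, and both were higher in medium than in air animals without passing the threshold in any lobe. With Ssc.9380.1.S1_at the median lobe had signals of 163, 145 and 154 in air animals, 235, 235 and 230.5 in low animals and 295, 226, 551 and 565 in medium animals. Every exposed animal was above every air animal, and medium animal 39 was just below the low animals. Every low value was above every air value in that lobe in 7.94% of all probe sets. In the caudal lobe it had 176, 166 and 196 in air animals, 319.8, 219 and 284 in low animals and 332, 364 and 512 in medium animals 34, 41 and 42. In the caudal lobe the doses did not overlap. Of all probe sets there, 5.85% had every low value above every air value and 5.72% every medium value above every low value. In the apical lobe it had 221, 172 and 259 in air animals, 244, 335 and 268 in low animals and 416, 172 and 929 in medium animals 34, 39 and 42. There the medium animals were scattered: 39 was as low as the lowest air animal and 42 had the highest signal of this probe set. Medium minus air was 1.23 ± 0.28 in the median lobe (adjusted p = 0.0761), 1.09 ± 0.19 in the caudal lobe (adjusted p = 0.116), 0.86 ± 0.48 in the apical lobe (adjusted p = 0.882) and 1.01 ± 0.32 over all lobes (adjusted p = 0.171). Without medium animal 42 the apical value was 0.29, and without 39 it was 1.46. Without medium animal 39 the value over all lobes was 1.33 and passed (adjusted p = 0.0295), and without medium animal 34 the caudal value of 1.22 did (adjusted p = 0.0418). Of all probe sets, those fits called 383 in place of 31 and 244 in place of 1.

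The second GADD45B probe set, Ssc.14764.1.A1_at, gave smaller medium minus air and low minus air differences over all lobes, with the same sign. In the median lobe its signals were 174, 147 and 148 in air animals, 181, 216 and 169 in low animals and 197, 272, 451 and 369.7 in medium animals. The medium animals were all above the air animals, but 34 lay among the low animals. In the caudal lobe it had 205, 161 and 134 in air animals, 228, 258 and 194 in low animals and 240.1, 324 and 358 in medium animals. In the apical lobe it had 227, 176 and 205 in air animals, 172, 255 and 243 in low animals and 222, 265 and 592 in medium animals. After normalization the medium values were above the air values in each of these lobes, although the raw apical signal of animal 34 lay just below that of air animal 28. Medium minus air was 0.91 ± 0.23 in the median lobe (adjusted p = 0.0980), 0.83 ± 0.19 in the caudal lobe (adjusted p = 0.129), 0.63 ± 0.32 in the apical lobe (adjusted p = 0.874) and 0.81 ± 0.22 over all lobes (adjusted p = 0.129). Without medium animal 42 the apical value was 0.21. Without medium animal 34 the median lobe value was 1.12 and passed (adjusted p = 0.0342), as did medium minus low there (0.88, adjusted p = 0.0341). Of all probe sets, 396 were then called in place of 97 and 1312 in place of 5.

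GADD45A, the classical p53 target of the family, had the smallest medium minus air difference of the family over all lobes, and its medium and air animals overlapped there. Its apical signals were 369, 319 and 370.1 in air animals, 371, 261 and 353 in low animals and 314, 269.6 and 648 in medium animals. In the apical lobe the air, low and medium animals overlapped, and medium animal 42 alone stood above the rest. Its median lobe signals were 232, 255 and 238 in air animals, 308, 265 and 393 in low animals and 303, 263, 619 and 685 in medium animals, so that all exposed animals lay above the air animals. In that lobe 7.94% of all probe sets had every low value above every air value. Caudal signals were 292, 303 and 269 in air animals, 364, 275 and 328 in low animals and 377, 493 and 518 in medium animals, with all medium animals highest. Every medium value was above every low value there in 5.72% of all probe sets. Medium minus air was 0.09 ± 0.30 in the apical lobe (adjusted p = 0.994), 0.79 ± 0.31 in the median lobe (adjusted p = 0.208), 0.67 ± 0.15 in the caudal lobe (adjusted p = 0.127) and 0.50 ± 0.27 over all lobes (adjusted p = 0.385). Without medium animal 42 the apical value turned to -0.30. Without medium animal 34 the caudal value was 0.81 and passed (adjusted p = 0.0436). That fit called 244 of all probe sets in place of 1.

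Taking the family in medium against air, 0 of the 4 probe sets were called over all lobes with limma, where 31 of all probe sets, 0.129%, were. At an unadjusted p under 0.05, 3 of the 4 passed there, against 16.6% of all probe sets. Medium animals lay entirely above air animals over all lobes for GADD45G and Ssc.14764.1.A1_at, a pattern that 6.88% of all probe sets showed. In the median lobe this held for all 4 probe sets, with 7.41% of all probe sets, and in the caudal lobe for all 4, with 9.26%. In the apical lobe it held for Ssc.14764.1.A1_at alone, with 4.99%. With the 28 arrays fitted together and the animal as a random block, medium minus air over all lobes passed for 3 of the 4, and 4.35% of all probe sets were called in that fit. It was then 0.96 for GADD45G (adjusted p = 0.00528), 1.04 for Ssc.9380.1.S1_at (adjusted p = 0.0146) and 0.81 for Ssc.14764.1.A1_at (adjusted p = 0.0131). That fit used 1 correlation between the lobes of an animal for all probe sets. Where a member's lobes agree more closely than that, its SE is too small and its p too low. For Ssc.9380.1.S1_at the SE was 0.23 there, against 0.32 with 1 value per animal. No member was called in the apical lobe, where 0% of probe sets were, or in the caudal lobe, where 0.00417% were. At an unadjusted p under 0.05, 0 of the 4 passed in the apical lobe (5.77% of all probe sets), 4 in the median lobe (18.6%) and 4 in the caudal lobe (15.5%).

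In low against air, which shares the air animals with the comparison above, no member was called over all lobes or in any of the 3 lobes, and the share of all probe sets called was 0% in each of these 4 fits. Over all lobes no member had an unadjusted p under 0.05, while 7.41% of all probe sets did. Within lobes 3 values did, GADD45G in the median lobe, where 6.93% of all probe sets did, and both GADD45B probe sets in the caudal lobe, where 6.09% did. Low minus air over all lobes was 0.51 ± 0.34 for Ssc.9380.1.S1_at (adjusted p = 0.725), 0.27 ± 0.23 for Ssc.14764.1.A1_at (adjusted p = 0.766), 0.21 ± 0.21 for GADD45G (adjusted p = 0.803) and 0.15 ± 0.29 for GADD45A (adjusted p = 0.914). Only Ssc.9380.1.S1_at had all 3 low animals above all 3 air animals over all lobes, as 9.23% of all probe sets did. The 95% intervals for GADD45G, -0.26 to 0.69, and for Ssc.9380.1.S1_at, -0.25 to 1.27, included 0.

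In medium against low no member was called over all lobes, where 0.00417% of probe sets were, in the median lobe, with 0.0208%, or in the apical and caudal lobes, with 0% each. Without medium animal 34, 1371 probe sets were called over all lobes in place of 1, and 1312 in the median lobe in place of 5. At an unadjusted p under 0.05, 2 of the 4 passed over all lobes (18.2% of all probe sets), 3 in the median lobe (22.4%), 3 in the caudal lobe (9.96%) and 0 in the apical lobe (11.2%). Over all lobes GADD45G alone had every medium animal above every low animal, a pattern of 7.26% of all probe sets. Medium minus low over all lobes was 0.54 ± 0.22 for Ssc.14764.1.A1_at (adjusted p = 0.239), 0.50 ± 0.32 for Ssc.9380.1.S1_at (adjusted p = 0.423) and 0.35 ± 0.27 for GADD45A (adjusted p = 0.515). As a trend over the 3 doses, the slope per 100 µg/kg was 0.93 ± 0.23 for GADD45G (adjusted p = 0.138), 1.01 ± 0.31 for Ssc.9380.1.S1_at (adjusted p = 0.189), 0.80 ± 0.22 for Ssc.14764.1.A1_at (adjusted p = 0.169) and 0.50 ± 0.27 for GADD45A (adjusted p = 0.413). None passed, and 0.00833% of all probe sets did. With the animal as a random block the slope passed for GADD45G (0.94, adjusted p = 0.0137), Ssc.9380.1.S1_at (1.03, adjusted p = 0.0198) and Ssc.14764.1.A1_at (0.79, adjusted p = 0.0209), and medium minus low passed for GADD45G (0.75, adjusted p = 0.0167). In these fits 2.81% of all probe sets were called for the slope and 5.84% for medium minus low. The shared correlation between lobes limits these passes in the same way.

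**Figure D2:**
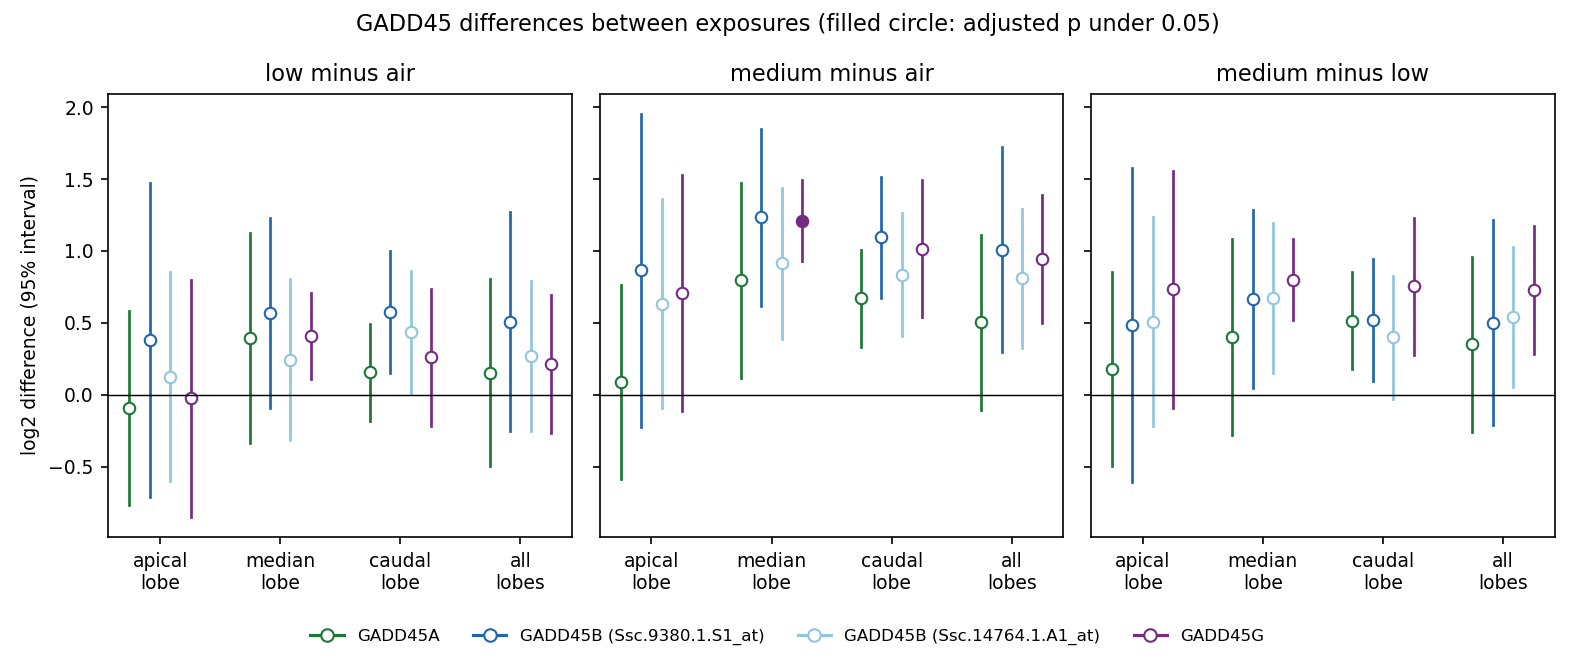
Log2 differences (vertical axis) of the 4 GADD45 probe sets for the 3 exposure contrasts (low minus air; medium minus air; medium minus low), in each lobe and over all lobes; bars are 95% intervals from limma and a filled circle marks an adjusted p under 0.05. GADD45G in the median lobe, medium minus air, is the filled circle at 1.21.

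The medium animals differed among themselves, in an order that was partly shared by the members. Animals 41 and 42 had the highest values over all lobes of GADD45A (9.22 and 9.30 on the log2 scale) and of both GADD45B probe sets (8.95 and 9.37, and 8.71 and 8.80). They were also highest for GADD45G (8.34 and 9.08), with animal 34 close to 41 (8.27). Animal 39 had the lowest medium value of GADD45A (8.07), Ssc.9380.1.S1_at (7.68) and GADD45G (8.19). Its GADD45A was below all 3 air animals (8.25 each), whereas its GADD45G was above all of them. Animal 39 also had the highest RNA integrity index. With the index as a covariate, medium minus air over all lobes was 0.97 ± 0.20 for GADD45G (adjusted p = 0.0639), 1.09 ± 0.25 for Ssc.9380.1.S1_at (adjusted p = 0.0761), 0.81 ± 0.23 for Ssc.14764.1.A1_at (adjusted p = 0.106) and 0.56 ± 0.24 for GADD45A (adjusted p = 0.223). In the same fit low minus air was 0.26 for Ssc.9380.1.S1_at and -0.022 for GADD45A, and medium minus low was 0.83 for Ssc.9380.1.S1_at and 0.58 for GADD45A, none of which passed.

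Differences between the members' changes were computed for 18 combinations of a pair of probe sets and an exposure contrast. With groups of 3 and 4 animals an exact permutation test adjusted over 18 comparisons could pass only if most of them were at their smallest possible p together, so they are given as values. Medium minus air of GADD45A minus that of Ssc.9380.1.S1_at was -0.50 ± 0.16 (95% interval -0.88 to -0.13). Its exact permutation p was 0.0571 (two-sided), or 0.588 after adjustment. Against the other GADD45B probe set, Ssc.14764.1.A1_at, GADD45A gave -0.30 ± 0.22 (95% interval -0.82 to 0.21). The intervals given here are not adjusted for the 18 comparisons. GADD45A against GADD45G gave -0.44 ± 0.27 in medium minus air (95% interval -1.07 to 0.19). Both GADD45B probe sets differed by 0.20 ± 0.26 in that contrast (95% interval -0.42 to 0.82). Across the 28 arrays the members' correlations with each other ran between 0.69 and 0.86, and between 0.54 and 0.81 after the mean of each lobe and exposure group was taken off. These arrays share animals, so the values are a description.

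Lobes of the same animal were compared with the animal as a block. GADD45G was higher in the median than in the caudal lobe in 9 of 9 animals, by 0.28 ± 0.10 (adjusted p = 0.310), where 0% of all probe sets were called. Ssc.9380.1.S1_at was higher in the apical than in the median lobe in 8 of 9 animals, by 0.29 ± 0.11 (adjusted p = 0.177), and Ssc.14764.1.A1_at in 7 of 9, by 0.25 ± 0.09 (adjusted p = 0.160). GADD45A differed by 0.16 ± 0.08 and GADD45G by -0.09 ± 0.10 in apical minus median (adjusted p = 0.364 and 0.746). No member passed in this contrast, in which 2.38% of all probe sets were called, or in apical minus caudal, with 0.167%. In air animals the apical lobe had the highest signal of the 3 lobes for all 4 probe sets, in 3 of 3 animals each. In low animals GADD45G was highest in the median lobe in 3 of 3, and in the 2 medium animals with all lobes it was highest in the apical lobe of animal 42 and the median lobe of animal 34. The shares of all probe sets with these lobe orders or these counts of animals were not computed, so the patterns may not be particular to the family.

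The exposure by lobe interaction asks whether the response differed between lobes. No member passed, and 0% of all probe sets were called. GADD45A, with medium minus air of 0.09 in the apical, 0.79 in the median and 0.67 in the caudal lobe, had an unadjusted p of 0.0310 and an adjusted p of 0.646, and 7.39% of all probe sets had an unadjusted p under 0.05. The adjusted p was 0.818 for GADD45G, 0.839 for Ssc.9380.1.S1_at and 0.889 for Ssc.14764.1.A1_at. The response of GADD45G was thus not shown to differ between lobes, although it was called in the median lobe alone.

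**Figure D3:**
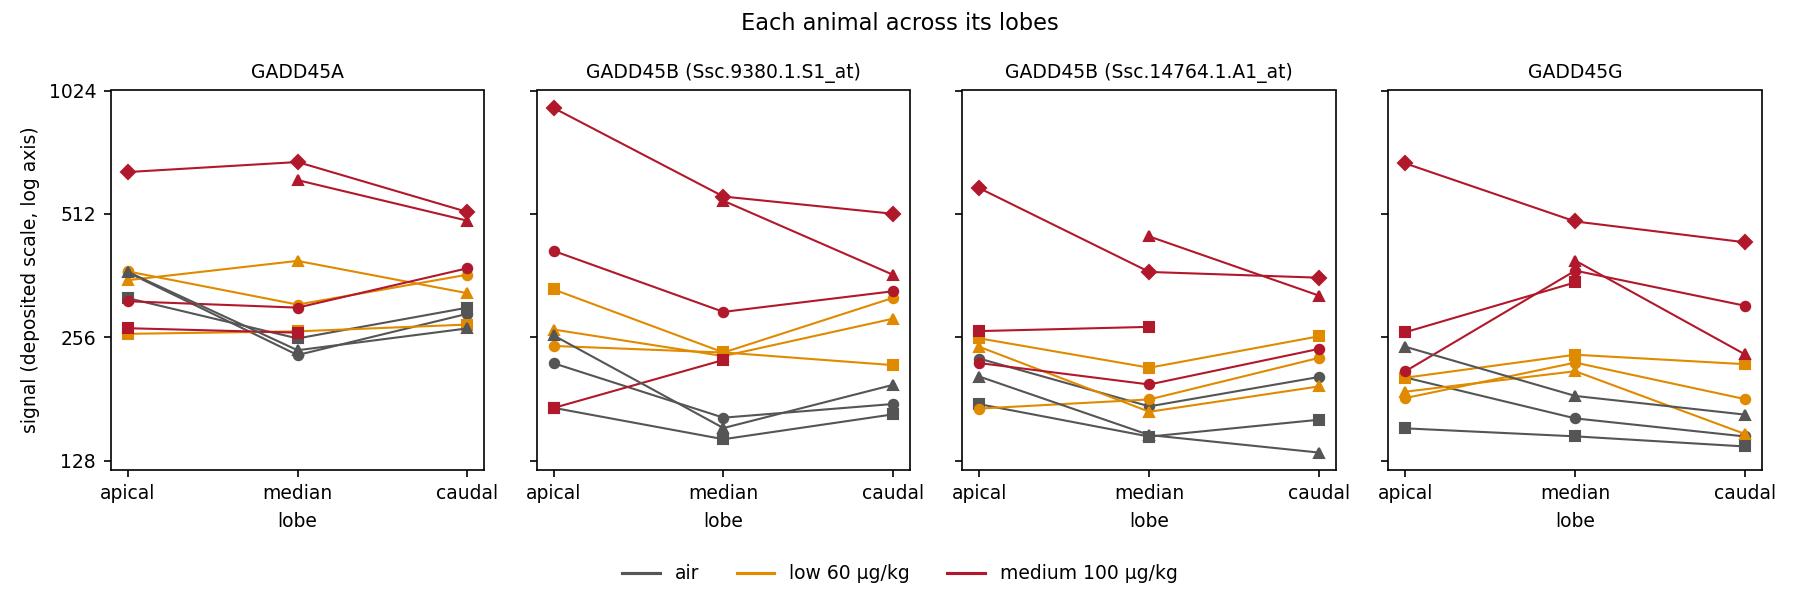
Deposited signal (vertical log axis) of each GADD45 probe set across the apical, median and caudal lobes, 1 line per animal, coloured by exposure. The 3 air lines start at their highest point in the apical lobe in each panel, and the GADD45G lines of the 3 low animals peak in the median lobe.

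Ranking the 9 groups of lobe and exposure by mean signal put all medium groups above all air and low groups for each of the 4 probe sets. How often other probe sets show this order was not computed. For GADD45A the place of the medium apical lobe rested on animal 42, with a signal of 648. Medium animals 34 and 39 (314 and 269.6) lay below all air animals there (369, 319 and 370.1). Without animal 42, apical medium minus air of GADD45A was -0.30. For GADD45G the lowest was the caudal lobe of air animals (150.5 ± 14.0, SD, n = 3), followed by the air median lobe (165 ± 18.8), the low caudal (183 ± 35.8), low apical (192 ± 11.3), air apical (200.3 ± 44.8) and low median lobe (222 ± 10.3, n = 3 each). Medium lobes came last, with 325 ± 103 in the caudal, 385 ± 257 in the apical (n = 3 each) and 401 ± 62.4 in the median lobe (n = 4). No neighbours in this order were further apart than the larger of their SDs. The same held for all but 1 of the 8 neighbouring pairs of GADD45A, in which the air median lobe (242 ± 11.7) was lowest and set apart from the air caudal lobe (288 ± 17.0). For Ssc.9380.1.S1_at, 2 of 8 pairs were further apart than that, the air median (154 ± 9.30) from the air caudal lobe (179.6 ± 15.3) and the low apical (282 ± 47.3) from the medium caudal lobe (403 ± 96.4). For Ssc.14764.1.A1_at it was 1 of 8, the low caudal (227 ± 31.6) and the medium caudal lobe (307 ± 60.6).

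Genes of the pathways around GADD45 were taken from 7 lists, each gene by its brightest probe set. The lists were chosen with results of these data known, so their counts are a description. Over all genes with a symbol, medium minus air over all lobes had a median of -0.02, with 45.7% of genes above 0 and 19.3% at an unadjusted p under 0.05. Among p53 targets, 18 of 26 were measured, 10 were above 0, the median was 0.06, and 5 had an unadjusted p under 0.05. PMAIP1, which encodes the pro-apoptotic protein NOXA, was the 1 called. With mean signals of 132 in medium and 61.5 in air animals, it rose by 0.91 ± 0.14 over all lobes (adjusted p = 0.0491) and by 1.11 ± 0.17 in the median lobe (adjusted p = 0.0413). Its adjusted p over all lobes lay between 0.0322 and 0.263 with any 1 animal left out, and 3 of these 10 fits called it, those without medium animal 34, 39 or 42. It was not called over all lobes with an offset of 1 (adjusted p = 0.0628), with only the 2 groups compared (0.133) or in the 8 animals with all lobes (0.0819). The median lobe call was lost in 9 of the 10 fits with 1 animal left out and with an offset of 1 (adjusted p = 0.0645). CDKN1A, the cell cycle inhibitor p21 that GADD45 proteins bind, averaged 310.0 in medium and 158 in air animals and differed by 0.86 ± 0.19 (adjusted p = 0.0948). It passed with the animal as a random block (0.84, adjusted p = 0.00377), a fit that called 4.35% of all probe sets and is limited as above. Without medium animal 34 it passed over all lobes (1.04, adjusted p = 0.0275) and in the median lobe (1.01, adjusted p = 0.0305). Those fits called 237 and 396 of all probe sets, in place of 31 and 97. Among the p53 targets with the opposite sign, DDB2, a sensor of DNA damage, differed by -0.27 ± 0.09 and CCNG1, cyclin G1, by -0.29 ± 0.11 (adjusted p = 0.199 and 0.233).

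Of the other GADD genes and the integrated stress response, 14 of 22 were measured, 11 lay above 0, the median was 0.21, 0 were called with limma and 3 had an unadjusted p under 0.05. PPP1R15A (GADD34), which brings phosphatase to eIF2 alpha, differed by 0.32 ± 0.20 and DDIT3 (GADD153, CHOP), a transcription factor of prolonged stress, by -0.07 ± 0.11. CEBPG, a partner of ATF4, differed by 0.45 ± 0.09 (adjusted p = 0.0753). The amino acid and folate enzymes ASNS and MTHFD2 differed by 0.50 ± 0.13 and 0.24 ± 0.10, and ATF4 itself by 0.20 ± 0.10. In the stress kinase list 13 of 24 genes were measured, 7 lay above 0, the median was 0.02 and 0 were called over all lobes, with 2 at an unadjusted p under 0.05. MAP3K4, the kinase that GADD45 proteins activate, differed by 0.02 ± 0.09. DUSP1, a phosphatase that switches off p38 and JNK, averaged 1761 in medium and 1034 in air animals and differed by 0.78 ± 0.16 (adjusted p = 0.0823), and in the median lobe it rose by 0.81 ± 0.14 (adjusted p = 0.0493). Of the 10 fits that left out 1 animal, 1 called DUSP1 in the median lobe, that without medium animal 34, and it was not called there under the deposited scaling (adjusted p = 0.0555) or with an offset of 1 (0.102). MAP2K6, a kinase upstream of p38, differed by -0.44 ± 0.12 (adjusted p = 0.134).

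Of the cell cycle partners of GADD45, 12 of 14 were measured, 5 lay above 0, the median was -0.04, 0 were called and 3 had an unadjusted p under 0.05. PCNA, the replication clamp bound by GADD45, differed by less than 0.01 with an SE of 0.11. CDKN1B (p27) differed by -0.35 ± 0.11 and the mitotic inhibitor kinase WEE1 by 0.21 ± 0.07. DNA repair and demethylation partners were measured for 7 of 21, 3 above 0, with a median of -0.03, 0 called and 2 at an unadjusted p under 0.05. APEX1, the base excision repair endonuclease, differed by 0.34 ± 0.07 (adjusted p = 0.0792) and ING1, which recruits GADD45A to chromatin, by -0.23 ± 0.07 (adjusted p = 0.171). Of the NF-kB and TGF-beta regulators and targets 9 of 20 were measured, 5 above 0, with a median of 0.03, 0 called and 1 at an unadjusted p under 0.05. That was NFKBIB, an inhibitor of NF-kB, with 0.43 ± 0.09 (adjusted p = 0.0878).

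Immediate early genes stood highest among the lists, with 16 of 23 measured, 15 above 0, a median of 0.55 and 9 at an unadjusted p under 0.05, all of them above 0. None was called with limma. FOS, with mean signals of 906 in medium and 379 in air animals, differed by 1.28 ± 0.25 (adjusted p = 0.0778). Its partner JUN differed by 0.71 ± 0.18, the nuclear receptor NR4A3 by 0.98 ± 0.25 and the transcription factor KLF4 by 0.61 ± 0.17 (adjusted p from 0.0778 to 0.133 over these 4 genes). In low minus air the medians of the 7 lists lay between -0.06 and 0.17, against 0.00 over all genes, and 0 of their genes were called, with 0 to 2 per list at an unadjusted p under 0.05.

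**Figure D4:**
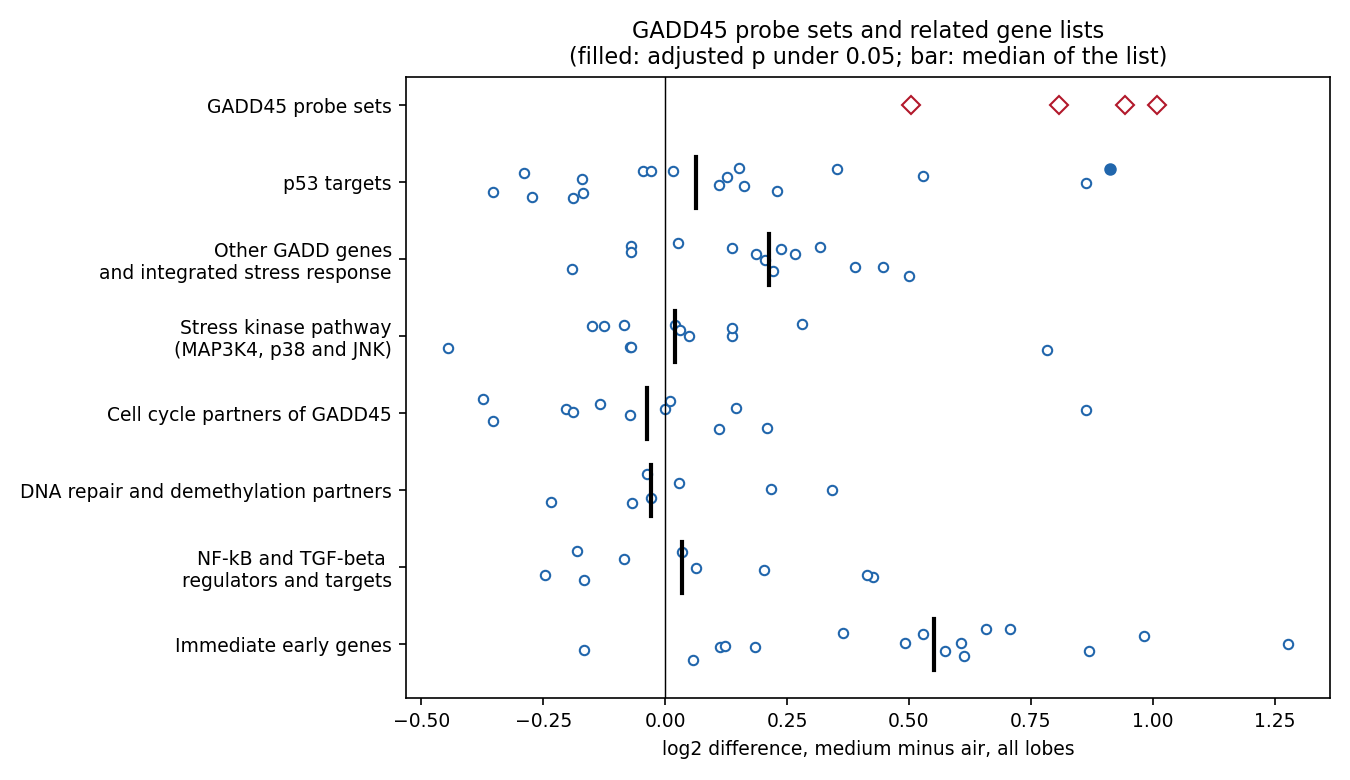
Medium minus air over all lobes (horizontal axis, log2 difference) of the 4 GADD45 probe sets (diamonds) and of the measured genes of 7 related lists (circles), with a vertical bar at each list's median and a filled mark for an adjusted p under 0.05. The GADD45 probe sets lie between 0.50 and 1.01, PMAIP1 is the filled mark among the p53 targets, and the immediate early genes have the highest list median, 0.55.

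The genes whose pattern over the 28 arrays was most like that of each member were sought among 5036 genes with a mean signal at or above the median over probe sets. For GADD45A they were KLF9 (r = 0.87 over arrays, 0.94 over the 10 animals), FKBP5 (0.86 and 0.96), TMEM41B and FMO1. KLF9 and FKBP5 are known as glucocorticoid-responsive genes. FKBP5 differed by 1.07 ± 0.58 in medium minus air (adjusted p = 0.389). For Ssc.9380.1.S1_at they were EIF1, a translation initiation factor (0.85 and 0.97), PDXK, KLF9 and NAMPT, and for Ssc.14764.1.A1_at PDXK, which makes the active form of vitamin B6 (0.88 and 0.94), PLAGL1 (0.88 and 0.97), FOSL2 and CRISPLD2. GADD45G was most like RRAD, a small GTPase (0.86 and 0.92), PPP1R15A (0.86 and 0.87), the tumour suppressor RASSF1 and the transcriptional regulator IFRD1. RRAD differed by 0.88 ± 0.20 (adjusted p = 0.0977) and IFRD1 by 1.04 ± 0.23 (adjusted p = 0.0916) in medium minus air, and by 0.06 ± 0.21 and 0.13 ± 0.25 in low minus air. PDXK stood on the lists of both GADD45B probe sets and KLF9 on those of GADD45A and Ssc.9380.1.S1_at, while no gene was shared with GADD45G. With only 4 genes named per member, this does not set GADD45G apart. Over the arrays it correlated with Ssc.9380.1.S1_at (r = 0.80) and Ssc.14764.1.A1_at (r = 0.82).

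Markers of cell types moved beside these results in some groups, and in bulk lung fewer cells of a type and less RNA per cell cannot be told apart. Epithelial markers were measured for 4 of 4, and their summed signal was 3257 to 4199 in medium animals and 2821 to 3156 in air animals, with no overlap, and 2977 to 3403 in low animals, overlapping both. KRT18, an epithelial keratin, rose in the median lobe by 1.28 ± 0.20 (adjusted p = 0.0413). Of the 10 fits with 1 animal left out, 1 called it, that without medium animal 34, and it was not called with an offset of 1 (adjusted p = 0.0778). Over the 10 animals the summed epithelial signal correlated with GADD45G (r = 0.82) and with GADD45A (r = 0.78), as a description. These were the largest in size among all marker sums. Next came erythroid markers for GADD45G (0.67) and T and NK cell markers for GADD45A (-0.60). Exposure means were not taken off, so differences between exposures enter these values. T and NK cell markers were measured for 6 of 9, with sums of 703 to 1370 in medium and 1562 to 1578 in air animals, and B and plasma cell markers for 2 of 5, with 1423 to 1645 in medium and 1811 to 1874 in air animals, neither overlapping. In low animals these sums were 1138 to 1766 and 1440.4 to 1637. JCHAIN made up most of the B and plasma cell sum (mean signal 1594, against 55.7 for CD79B), and S100A9 most of the neutrophil sum (1524). How often sums of other genes separate medium from air animals was not computed. Sums did overlap for neutrophil markers (4 of 7 measured, 1616 to 1995 in medium and 1442 to 1985 in air animals), ciliated cell markers (5 of 8, 945 to 996 in medium and 891 to 1209.7 in air animals) and alveolar type 2 markers (4 of 7, 5067 to 6973 in medium and 5462 to 6956 in air animals). Of 9 airway secretory markers 6 were measured, with 3 above 0 in medium minus air and a median of -0.11. MUC1, an epithelial mucin, fell over all lobes (-0.74 ± 0.08, adjusted p = 0.0195), while the keratin KRT19 (0.44 ± 0.11, adjusted p = 0.109) and the tight junction gene CLDN4 (0.37 ± 0.13, adjusted p = 0.193) had the opposite sign and did not pass. The MUC1 call was lost without air animal 29 or medium animal 41, where 0 probe sets were called over all lobes. MUC1 was not followed in the other alternative fits. The part of cell composition in the GADD45 values was not tested.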

How the data were processed

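RNA from 28 lung lobes of 10 female swine was hybridized to the Affymetrix porcine array, with lobe, dose and animal taken from the labels. The authors deposited 1 linear intensity value for each probe set and array, and the summarization software and genome build are not given in the sources used here. With 2% trimmed at each end, all arrays had a mean of 150.0, so they had been brought to a shared level. Gene symbols came from the supplied platform annotation, which gave 1 symbol for 10069 of the 23999 probe sets that were not among the 124 controls.

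Signals were taken as log2(signal + 16) and quantile normalized, since lower quartiles differed by 0.32 between arrays. Tests used limma 3.58.1 in R 4.3.3, with figures drawn in Python 3.11.15. Simulated data were used to try medium minus air (over all lobes and in the median lobe), the dose trend, apical minus median and the interaction. Normalization, the random block and the covariate were not tried in this way. The animal was the replicate: a model with terms for animal and lobe gave each animal 1 value over all lobes, and the 3 exposures were fitted together. Each lobe was also fitted alone, with 1 array per animal. Lobe contrasts and the interaction had the animal as a fixed block, since the labels give the animal of each array. Probe sets were called at an adjusted p under 0.05 over all 23999, with no filter on brightness and no fold minimum. The number of arrays limits the precision.

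All members were described with their value on every array. From each list were named the called genes, up to 4 genes of smallest p in medium minus air, and CDKN1A, PPP1R15A, DDIT3, MAP3K4 and PCNA whatever their p. The 4 genes of highest Pearson r with each member were named as most alike. The markers KRT18, MUC1, KRT19 and CLDN4 fall outside this rule and were chosen after their values were seen. The members and lists were chosen with earlier results of these data known. Alternatives covered the scaling, the offset, brightness, the modelling of the animal, an RNA integrity covariate and each animal left out.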

Additional observations from a re-analysis of the deposited data

Results flagged for a closer look

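GADD45G over all lobes had 1 medium animal far from the others. Animal 42 was at 9.08 on the log2 scale, and animals 34, 39 and 41 lay between 8.19 and 8.34. Its gap to the nearest animal was 0.830 of the range of the group, just past the limit of Dixon's test for 4 samples at the 95% level. Of the 9 groups tested in this way 1 stood out, and chance flags about 1 in 20. Without animal 42, medium minus air of GADD45G over all lobes was 0.73 (adjusted p = 0.0916).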

How the results depend on the processing

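Of the GADD45 values under alternative settings that kept all animals or only those with all lobes, 280 kept their direction and their side of the threshold. In those settings 7 newly passed and 1 reversed. In the fits that left out 1 animal, 631 values kept both, 8 newly passed, 5 no longer passed and 12 reversed. The 7 that newly passed with all animals kept came with the replicate block as random effect. There medium minus air over all lobes was 1.04 for Ssc.9380.1.S1_at, 0.81 for Ssc.14764.1.A1_at and 0.96 for GADD45G. Medium minus low was 0.75 for GADD45G, and the slopes were 1.03, 0.79 and 0.94. Their p can be too low, since that fit used 1 correlation between the lobes of an animal for all probe sets. GADD45A in low minus air over all lobes was -0.022 with the RNA integrity covariate, and the cause was not tested. Without a replicate block no member passed in apical minus median (GADD45A 0.11, GADD45G -0.07), and 39 probe sets were called there in place of 570. The 31 calls of medium minus air over all lobes became 53 among brighter probe sets, 1 with only the 2 groups compared, 1044 with the random block, 2 in the 8 animals with all lobes and 87 with the covariate. The 97 calls in the median lobe became 12 with an offset of 1, while GADD45G there remained called (1.28, adjusted p = 0.0482) and was also called under the deposited scaling. Leaving out 1 animal at a time gave 0 to 383 calls over all lobes (0 without 29 or 41, 383 without 39) and 0 to 396 in the median lobe (396 without 34, 0 without 28, 29, 31, 32 or 41). It gave medium minus air over all lobes from 0.73 to 1.04 for GADD45G and 0.76 to 1.33 for Ssc.9380.1.S1_at. In the median lobe it gave 1.11 to 1.29 for GADD45G and 0.74 to 1.12 for Ssc.14764.1.A1_at, and in the caudal lobe 0.58 to 0.81 for GADD45A and 0.91 to 1.22 for Ssc.9380.1.S1_at. Medium minus low in the median lobe was 0.70 to 0.87 for GADD45G and 0.49 to 0.88 for Ssc.14764.1.A1_at. Signs turned only for differences that never passed in these fits. In the apical lobe, GADD45A was -0.30 to 0.35 in medium minus air, -0.21 to 0.45 in medium minus low and -0.18 to 0.062 in low minus air, Ssc.9380.1.S1_at was -0.093 to 1.09 in medium minus low, and GADD45G was -0.19 to 0.12 in low minus air. In median minus caudal, GADD45A was -0.066 to 0.013 and Ssc.9380.1.S1_at -0.11 to 0.016. Groups of 3 or 4 animals limit the precision of every value.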
